A study of Bos taurus with 24 samples.

Results

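In testes of 24 Holstein bulls, 150 gene identifiers (IDs) were selected on their measured levels as the genes whose level fell most regularly as a library held more reads outside annotated exons. They were chosen by ranking 2 values among the 8 bulls of each diet. One was the gene's level in CPM, which is its count scaled to 1000000 counts on gene features per library. The other was the share of reads outside exons, in percent of all counts on bins plus unassigned reads of the library. A read over several bins counts in each, so this is an index and not an exact percent of reads. The ranks of the 24 bulls were then pooled, and the 150 IDs with the lowest Pearson correlation of the ranks were taken. They came from 11365 eligible IDs out of 24525 gene features in the annotation. An eligible ID was not joined to an overlapping gene, had 2 to 49 exon bins, had a mean count of at least 50, and was not among the 100 IDs of highest mean level that met these conditions. An exon bin is a stretch of exon that belongs to one set of transcripts.

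Each library came from the testis of 1 bull at 72 wk of age. HD bulls (n = 8) were fed a diet of 67.9% total digestible nutrients and 20.0% crude protein. For MD bulls (n = 8) these were 66.0% and 17.0%, and for LD bulls (n = 8) 62.9% and 12.2%. Diets began at 2 wk of age and, by the study's methods, ended at 31 or 32 wk, after which all bulls received the MD diet, so the groups differ in early feeding and share the later diet. Libraries held 9163675 to 21902110 counts on gene features, and 1 LD library stood above the other LD libraries in its total.

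In mRNA sequencing, most reads are expected to fall in exons, since mature transcripts have lost their introns. Reads outside exons can arise from introns of RNA that has not been spliced, from transcripts missing from the annotation, or from DNA carried into the library. Testis holds germ cells at all stages of spermatogenesis next to somatic cells, and it transcribes a large part of the genome. As whole tissue was sequenced, fewer cells of a type and less RNA per cell cannot be told apart.

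The deposited counts carry Ensembl IDs without gene symbols, and 0 of the members' IDs could be matched to a symbol here. For that reason the members are described by their counts, bins and levels and not by function, no sequence is shown, and the label of the tissue was not checked against marker genes. A few members are named by ID. ENSBTAG00000018074 had the most negative correlation with the share of reads outside exons, ENSBTAG00000007454 was the first by ID among members tied at the next value, and ENSBTAG00000012485 and ENSBTAG00000022009 had the smallest p among members that were higher in HD than in MD bulls.

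Share of reads outside exons in the 3 diets. HD bulls averaged 12.3 ± 2.17% of reads outside exons (SD, n = 8), MD bulls 14.5 ± 3.28% and LD bulls 13.3 ± 1.83%. It ran from 9.54% in HD bull 8 to 15.6% in HD bull 14, from 11.4% in MD bull 5 to 21.4% in MD bull 6, and from 10.3% in LD bull 2 to 15.96% in LD bull 1. The diets overlapped, and MD bull 6 lay above all other bulls. Bull numbers are names only and pair no bulls across diets.

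Together the 150 members held 2.61 ± 0.686% (SD, n = 24) of the counts on features. In HD bulls this summed level was lowest in bull 14 (1.89%), had a median of 2.93% and was highest in bull 8 (4.31%). In MD bulls it was lowest in bull 6 (1.60%), had a median of 2.15% and was highest in bull 5 (3.02%). In LD bulls it was lowest in bull 1 (1.87%), had a median of 2.47% and was highest in bull 2 (3.19%). In each diet the bull with the lowest share of reads outside exons had the highest summed level and the bull with the highest share had the lowest. This order follows from how the members were chosen and is given as a description. CPM has counts on features as its denominator, so reads outside exons do not enter it directly.

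**Figure D1:**
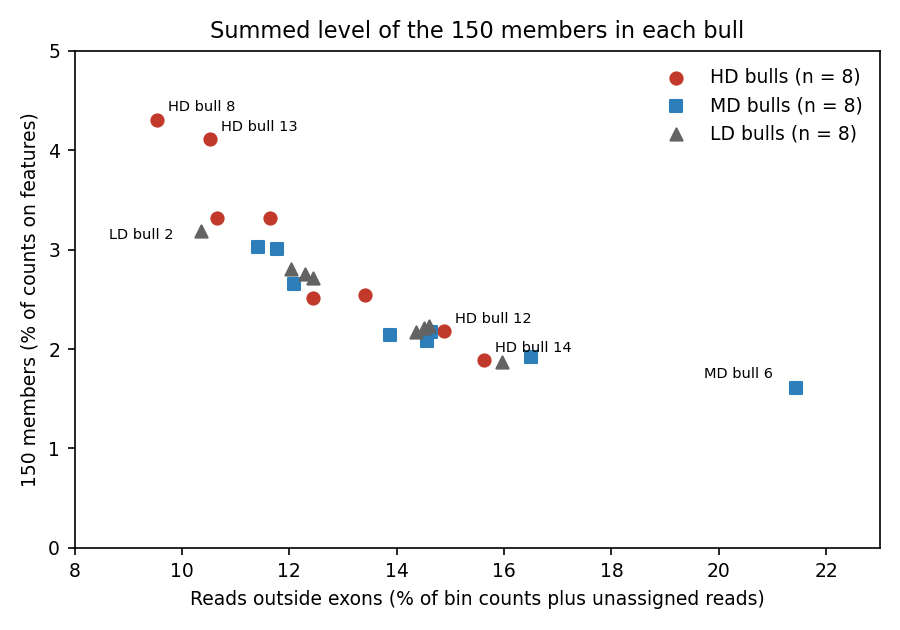
Summed level of the 150 members (percent of a library's counts on features) against the share of reads outside exons (percent of bin counts plus unassigned reads), 1 point per bull, 8 bulls per diet. The sum falls from 4.31% in HD bull 8, with 9.54% of reads outside exons, to 1.60% in MD bull 6, with 21.4%, and the 3 diets lie along one another.

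Size of the fall. Between the bulls with the lowest and the highest share in a diet, all 150 members were higher in the first. HD bull 8 exceeded HD bull 14 by a median of 2.32-fold (log2 difference 1.21, range over members 0.16 to 2.61). HD bull 14 had the fewest counts on features of all bulls (9163675). HD bull 8 had the second highest share of alignments of low quality (17.9%). MD bull 5 exceeded MD bull 6 by a median of 1.83-fold (log2 0.87, range 0.27 to 1.56). LD bull 2 exceeded LD bull 1 by a median of 1.66-fold (log2 0.73, range 0.18 to 2.10). The median fold over the 11365 eligible IDs went the other way in the same pairs of bulls, at 0.865, 0.846 and 0.925. All these folds are in CPM, and how eligible IDs relate to the share depends on the scale, as given below. Each of these is a comparison of 2 libraries without replicates.

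Per percentage point of reads outside exons, log2(CPM + 0.5) of the members changed by a median of −0.116 within diets, with a range over members of −0.204 to −0.063. The median over eligible IDs was 0.031. The share accounted for a median of 68.7% of a member's variance between bulls of the same diet, against 22.3% for eligible IDs. In log2 units, the SD of a member between bulls of a diet had a median of 0.35, and 0.20 was left after the share was fitted. For eligible IDs the corresponding medians were 0.37 and 0.32. As members were chosen by their relation to this share, a closer fit than in eligible IDs was set by the choice. Before that fit the members were thus about as variable as other IDs, with a median coefficient of variation of 27.1% against 26.8%.

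**Figure D2:**
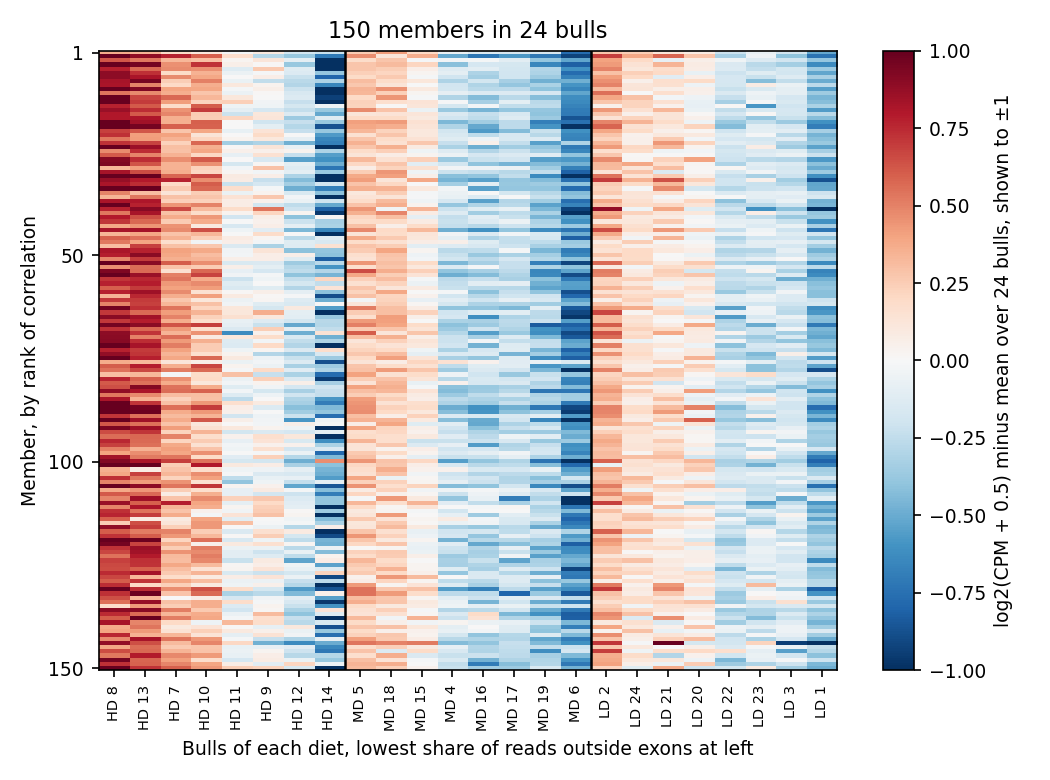
Level of each of the 150 members in each of 24 bulls, as log2(CPM + 0.5) minus the member's mean over all bulls, with colors limited to ±1. Rows are ordered by rank of correlation, and bulls are ordered within each diet by share of reads outside exons, lowest at left; HD bulls 8 and 13 are red in nearly every row, and HD bull 14, MD bull 6 and LD bull 1 are blue.

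A few bulls held the extremes. Over all 24 bulls, 95 of 150 members were highest in HD bull 8 and 48 in HD bull 13. The lowest value was in MD bull 6 for 81 members and in HD bull 14 for 52. Within diets, 100 members were highest in HD bull 8, 79 in MD bull 5 and 111 in LD bull 2. The lowest value of the diet was in HD bull 14 for 116 members, in MD bull 6 for 132 and in LD bull 1 for 127. HD bull 8, MD bull 5 and LD bull 2 had the lowest shares of reads outside exons in their diets, and HD bull 14, MD bull 6 and LD bull 1 the highest. HD bull 13 and MD bull 18, the latter highest of its diet for 67 members, had the second lowest shares of theirs (10.5% and 11.8%).

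Correlations that chose the members. The rank correlation ran from −0.960 to −0.865 with a median of −0.889, whereas the median over eligible IDs was 0.222 and 38.4% of them were below 0. Taken in 1 diet at a time (n = 8 bulls each), HD bulls gave a median over members of −0.952, MD bulls −0.905 and LD bulls −0.881. The least negative members stood at −0.738, −0.714 and −0.667, respectively, so all 150 were below 0 in each diet. At the edge of the list 21 IDs shared a correlation of −0.865, of which 20 were taken and 1 was left out by the order of IDs. Within HD, MD and LD bulls the last ID taken stood at −1, −0.857 and −0.738, with a mean of 145.7 CPM. The first ID left out stood at −0.952, −0.833 and −0.810 with a mean of 196.6 CPM, and the next value in the ranking was −0.857. The edge of the list therefore falls inside a continuous range of values.

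The same measure was then read in bulls that had not been used. When the rule was applied to MD and LD bulls alone, the 150 IDs it took had a median correlation of −0.762 in the 8 HD bulls, and 144 of 150 were below 0 there, against 39.8% of eligible IDs. For IDs taken from HD and LD bulls, the median in the 8 MD bulls was −0.857 and 148 of 150 were below 0, against 36.9%. For IDs taken from HD and MD bulls, the median in the 8 LD bulls was −0.786 and 149 of 150 were below 0, against 40.1%. Of the IDs taken in this way, 73, 104 and 91, respectively, were also among the 150 members. Nearly all IDs thus had the same direction in the diet left out. IDs that follow one measure also follow each other, so these are not 150 separate observations. The identity of the IDs at the top of the ranking varied with the bulls used. Points in these correlations share library and depth, and they are given without a p.

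The list also depended on the scale. With levels scaled by TMM (trimmed mean of M values, which adjusts libraries for differences in composition), 148 members remained eligible, and their correlations ran from −0.976 to −0.833 with a median of −0.905. On that scale the median over eligible IDs was −0.040, and 90 of the members were among the 150 most negative. All 148 thus fell with the share on both scales.

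Properties that the rule did not rank. Members had a median of 9 exon bins (range 2 to 23) against 10 in eligible IDs, and 13 in the 150 IDs with the most positive correlations. Of the 150 members, 38 had at most 5 bins and 98 at most 10. The main contrast was in abundance. Mean levels of members had a median of 128 CPM (range 9.12 to 742), while the median was 29.1 CPM in eligible IDs and 38.0 CPM in the 150 most positive IDs. Counts per bin, which take into account how finely a gene was divided, had medians of 185, 44.4 and 43.4, respectively. Bins differ in length, so this is not a level per length. The median of the mean counts of members was 1850 per bull, with a range of 133 to 10765.

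The fall was seen along whole genes and not in single bins. Members had 1353 bins, of which 1334 had a mean count of at least 10. Of these, 1333 (99.9%) had a negative correlation with the share, with a median of −0.825 and a range of −0.976 to 0.063. Every such bin was negative in 149 of 150 members. Over eligible IDs, 37.0% of 97482 bins were negative. Bin counts add up to the gene counts that the rule used, so they are not an independent readout.

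Members also varied together. Within diets, the first principal component of their levels held 84.1% of the variance and the second 5.34%, against 39.7% and 18.4% for eligible IDs. The rank correlation between 2 members over the 24 bulls had a median of 0.857 (range 0.587 to 0.992), against 0.048 for pairs from an even subset of eligible IDs. IDs that all follow one measure closely must also follow each other, so part of this was set by the choice of members.

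Other measures of the libraries. Members rose with the share of ambiguous reads, which overlap more than one gene, at a median correlation of 0.817 (range 0.690 to 0.944), while the median over eligible IDs was −0.262. They rose with the share of alignments of low quality at a median of 0.496 (range 0.333 to 0.675), against −0.151. They rose with a library's counts on features at a median of 0.413 (range 0.198 to 0.595), against −0.056. These measures were not independent of the share of reads outside exons, with which they correlated over the 24 bulls at −0.857, −0.524 and −0.452, respectively. All of these are ranks within diets over the same 24 libraries, and which measure the members follow was not tested.

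Members did not order with the coverage index. This is the log2 ratio of counts at the more covered end of genes to those at the other end, an indirect measure of RNA integrity, taken over IDs with at least 6 bins. The median correlation was −0.008 (range −0.230 to 0.238), equal to that of eligible IDs, and the index itself correlated with the share of reads outside exons at 0.040, so a value near 0 was largely set by the choice of members. Over the 112 members with enough bins, HD bulls averaged 0.72 ± 0.14 (SD, n = 8), MD bulls 0.65 ± 0.06 and LD bulls 0.68 ± 0.08. HD bull 13 was the highest at 1.01, and the medians of the diets were 0.68, 0.64 and 0.64.

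**Figure D3:**
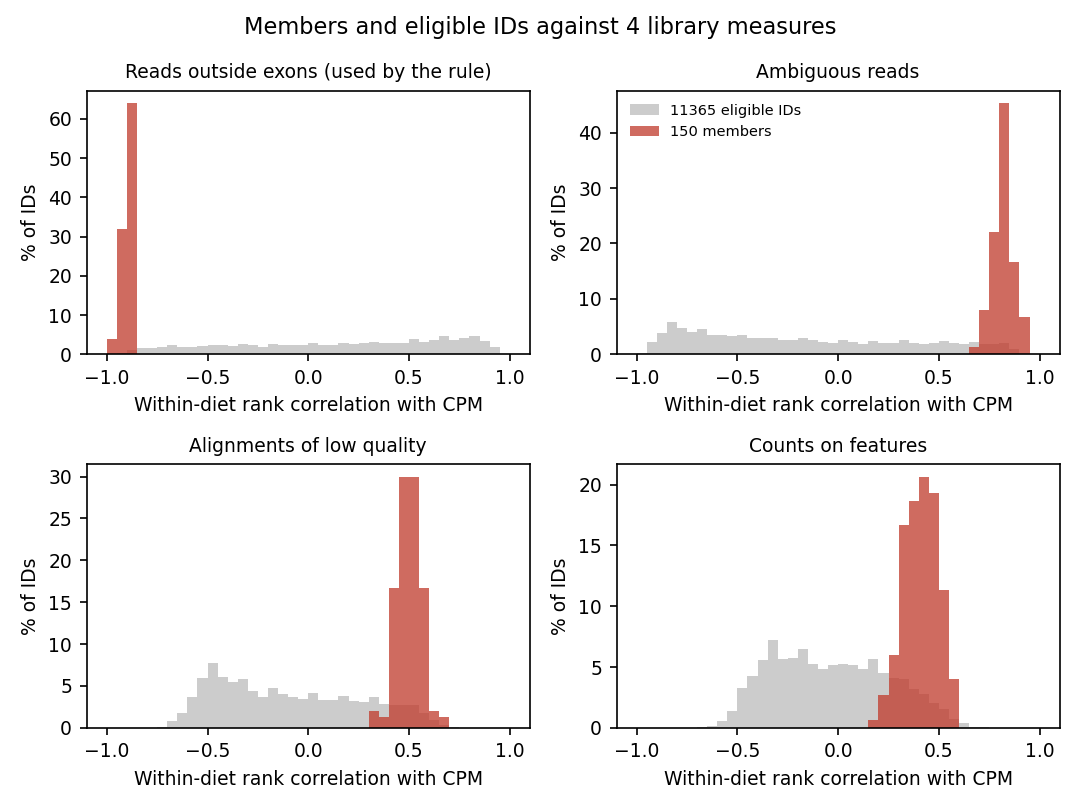
Histograms of the within-diet rank correlation of CPM with 4 measures of a library, in percent of IDs, for 11365 eligible IDs (grey) and the 150 members (red). Members were chosen by the first measure, where their median is −0.889; their medians are 0.817 for ambiguous reads, 0.496 for alignments of low quality and 0.413 for counts on features.

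Some abundant mitochondrially encoded features, which the rule did not admit, behaved alike on the same measure. The correlation was −0.897 for COX1, a catalytic subunit of cytochrome c oxidase with a mean of 20298 CPM, and −0.857 for CYB, the cytochrome b of complex III. It was −0.873 for the feature that joins COX3 and ATP6, subunits of cytochrome c oxidase and ATP synthase, with another gene that overlaps.

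Named members. ENSBTAG00000018074 (6 bins) had the most negative correlation, −0.960. Its level in HD bulls was lowest in bull 14 (158 CPM), had a median of 198 CPM and was highest in bull 8 (239 CPM). In MD bulls it ran from 108 CPM in bull 6 through a median of 173 CPM to 247 CPM in bull 18, and in LD bulls from 129 CPM in bull 1 through 185 CPM to 224 CPM in bull 2. The diets overlapped over most of their range. The share of reads outside exons accounted for 90.2% of its variance within diets.

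ENSBTAG00000007454 (6 bins) came next at −0.952. Other members had the same value, and it was taken among them by the order of IDs. Its level ran from 96.1 CPM in HD bull 14 through a median of 209 CPM to 320 CPM in HD bull 8. It ran from 82.8 CPM in MD bull 6 through 108 CPM to 218 CPM in MD bull 5. It ran from 94.2 CPM in LD bull 1 through 172 CPM to 255 CPM in LD bull 2. Its slope of −0.199 log2 units per percentage point was close to the steepest among members, and the diets overlapped.

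ENSBTAG00000012485 (12 bins) was among the members of low level, with a correlation of −0.873. It ran from 17.3 CPM in HD bull 12 through a median of 22.6 CPM to 38.5 CPM in HD bull 13. It ran from 13.4 CPM in MD bull 6 through 18.9 CPM to 21.4 CPM in MD bull 18. It ran from 17.5 CPM in LD bull 1 through 20.1 CPM to 26.0 CPM in LD bull 2. HD bulls 7, 8, 10 and 13 lay above all MD bulls, and the other HD bulls lay within the range of MD bulls.

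ENSBTAG00000022009 (9 bins) had a correlation of −0.897. It ran from 152 CPM in HD bull 12 through a median of 196 CPM to 288 CPM in HD bull 8. It ran from 95.6 CPM in MD bull 6 through 152 CPM to 197 CPM in MD bull 5. It ran from 124 CPM in LD bull 1 through 156 CPM to 194 CPM in LD bull 2. The same HD bulls (7, 8, 10 and 13) lay above all MD bulls and above all LD bulls.

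**Figure D4:**
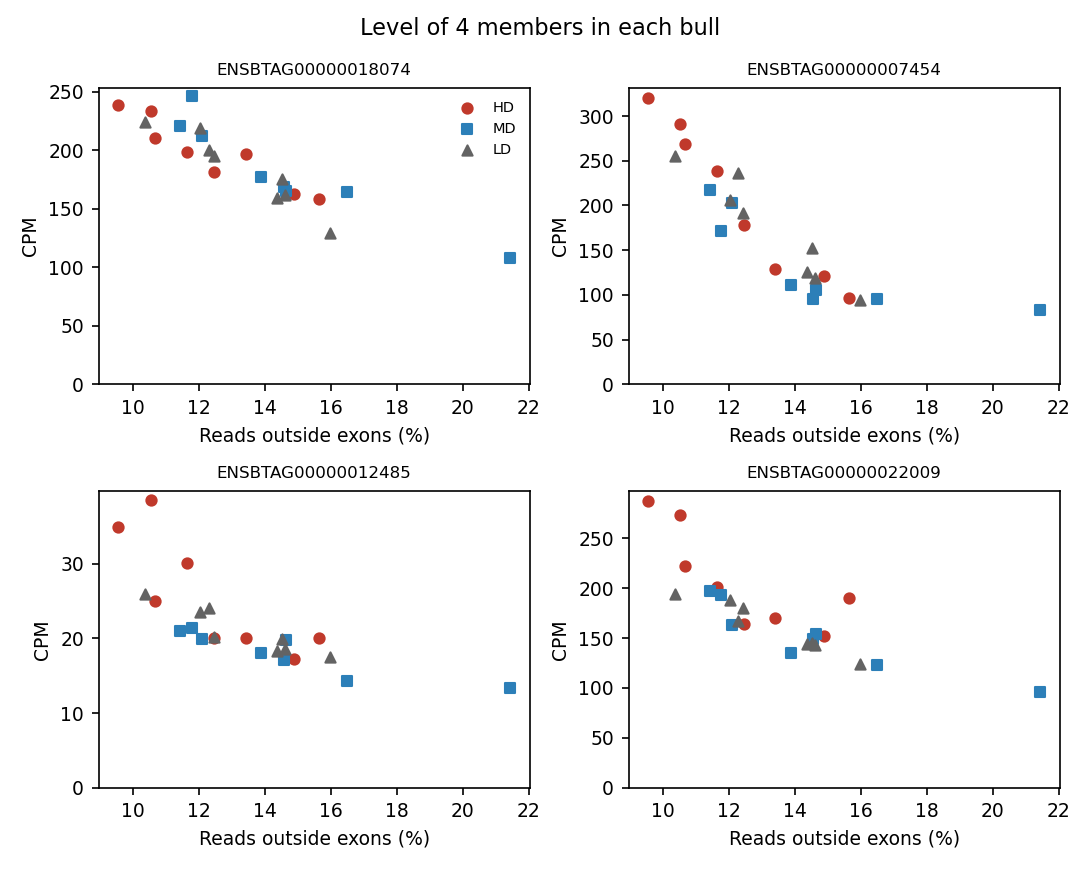
Level (CPM, from 0) of 4 members against the share of reads outside exons (percent), 1 point per bull, 8 bulls per diet. All 4 fall as the share rises; ENSBTAG00000007454 goes from 320 CPM in HD bull 8 to 82.8 CPM in MD bull 6, and HD points of ENSBTAG00000012485 reach 38.5 CPM where MD and LD points stay at or under 26.0 CPM.

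HD versus MD. Levels were ranked within diets to choose the members, so their differences between diets did not enter the ranking. The share that did averaged 12.3% in HD and 14.5% in MD bulls, a gap that was not tested. Members chosen to fall with this share therefore lean towards higher levels in HD bulls by that choice. Their direction here is not independent of the rule. The fitted level was higher in HD than in MD bulls for all 150 members, though not all passed the test. By edgeR's quasi-likelihood test with Benjamini-Hochberg adjustment over 15005 features, 90 of 150 members had an adjusted p under 0.1, and all 90 were higher in HD. Over all features tested 8.68% were called higher in HD and 14.1% in either direction, and over eligible IDs 10.2% were called higher. All 150 members passed the filter on low counts. At an unadjusted p under 0.05, 137 members were higher in HD, against 15.9% of all features and 18.6% of eligible IDs.

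The log2 fold change of HD over MD was above 0 for all 150 members, with a median of 0.59 (range 0.20 to 0.86), whereas the median over all features was 0.00. The 90 called members had a median of 0.63 (range 0.42 to 0.86) and adjusted p from 0.0702 to 0.0979. The 60 others had a median of 0.48 (range 0.20 to 0.71) and adjusted p from 0.1001 to 0.424. Members move together, so these are not 150 separate observations. In CPM scaled to the library total, HD and MD bulls overlapped for all 150. On that scale, HD bulls lay wholly above MD bulls for 1 of the 15005 features tested and wholly below for 17. The members were near this background. The fold changes use TMM, and overlap was not counted on that scale. In the 150 IDs with the most positive correlations, 0 were called higher and 12 lower in HD, and the median was −0.45.

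For ENSBTAG00000012485 the log2 fold change was 0.74 ± 0.20 (SE, edgeR adjusted p = 0.0702). It was 0.68 ± 0.20 for ENSBTAG00000022009 (adjusted p = 0.0702) and 0.83 ± 0.30 for ENSBTAG00000007454 (adjusted p = 0.0865). For ENSBTAG00000018074, the member with the most negative correlation, it was 0.32 ± 0.18 and did not pass (adjusted p = 0.236). Each has n = 8 bulls per diet, and the edgeR fit pooled the spread over all 24.

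The share of reads outside exons moved with this comparison, being 12.3% in HD and 14.5% in MD bulls, a gap of 2.19 percentage points. Without MD bull 6 the MD mean was 13.5% (n = 7) and the gap 1.21 percentage points. So did the share of ambiguous reads (HD 0.277 ± 0.0588%, MD 0.221 ± 0.0371%, LD 0.238 ± 0.0367%) and that of alignments of low quality (HD 11.5 ± 5.18%, MD 7.80 ± 1.33%, LD 8.24 ± 1.82%, all SD, n = 8). When the share of reads outside exons was added to the edgeR fit as a covariate, 0 of 150 members had an adjusted p under 0.1, and 1 of 15005 features did. The median log2 fold change of members was then 0.22 (range −0.07 to 0.44), with 146 of 150 above 0. At an unadjusted p under 0.05, 46 members were higher in HD, against 10.3% of all features. For ENSBTAG00000012485 the value became 0.42 ± 0.13 (adjusted p = 0.191), for ENSBTAG00000022009 0.39 ± 0.12 (adjusted p = 0.191), and for ENSBTAG00000007454 0.28 ± 0.16 (adjusted p = 0.402). For ENSBTAG00000018074 it went from 0.32 to 0.04 ± 0.09 (adjusted p = 0.873). The covariate is a measure of the same libraries and the one that chose the members. With all 150 slopes below 0 and a lower share in HD bulls, a smaller fold was set by the choice of members, and ENSBTAG00000018074 and ENSBTAG00000007454 were named for their correlation with the share. These values are therefore a description, and whether or why the share differs between diets was not tested.

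The number of called members rested on single bulls. With each bull left out in turn it ranged from 0 to 137 of 150. It was 0 in 8 of the 24 fits, those without HD bull 7, 8 or 13 or without MD bull 4, 6, 16, 17 or 19, and in each of these 1 of all features was called. In these 8 fits 91 to 128 members were higher in HD at an unadjusted p under 0.05, against 11.3% to 14.1% of all features. The count was 57 without HD bull 10 (11.7% of all features called), 59 without LD bull 20 (10.7%) and 137 without HD bull 14 (23.9%). Over the same 24 fits the median log2 fold change of members stayed between 0.45 and 0.67.

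Scaling changed the background as well. When libraries were scaled by their size only, the median over all features moved to −0.21, the member median was 0.37, and 36 members were called, all higher in HD. Over all features 542 of 3547 calls were then higher in HD, against 1302 of 2116 with TMM.

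HD versus LD. This comparison uses the same HD bulls as the one above, so the 2 are not independent. By edgeR's test 0 of 150 members had an adjusted p under 0.1, as did 0% of all features, and the smallest adjusted p among members was 0.206. At an unadjusted p under 0.05, 97 members were higher in HD, against 11.1% of all features and 13.1% of eligible IDs. DESeq2 called 13 members, all higher in HD, and 524 of all features, of which 439 were higher. It took in every feature with any count, more than edgeR's 15005, so its calls are not shares of the same total. The log2 fold change was above 0 for all 150 members, with a median of 0.47 (range 0.11 to 0.78), and the median over all features was 0.01. It was 0.58 ± 0.20 (SE, adjusted p = 0.206) for ENSBTAG00000022009, 0.50 ± 0.20 (adjusted p = 0.215) for ENSBTAG00000012485, 0.46 ± 0.30 (adjusted p = 0.395) for ENSBTAG00000007454 and 0.30 ± 0.18 (adjusted p = 0.362) for ENSBTAG00000018074.

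With that share in the fit, which again lowered the values by the choice of members, the median of HD over LD was 0.29 and 148 of 150 members were above 0. Calls stayed at 0 of 150, and 94 members were higher in HD at an unadjusted p under 0.05, against 10.6% of all features. Without HD bull 12, 12 of 150 members and 716 of at least 15042 features tested were called. HD bull 12 had the most alignments of low quality (20.99%) and HD bull 8 the next most (17.9%). Without HD bull 8 the member median was 0.33, the lowest with any single bull left out. Whether alignment quality plays a part was not tested.

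MD versus LD. No difference was detected. By edgeR's test 0 members were called, as were 0 of all features. At an unadjusted p under 0.05 there were 0 members in either direction. The shares were 1.07% of all features and 0.678% of eligible IDs, with 0.546% and 0.343% higher in MD. DESeq2 also called 0 members and 0 of all features. The median log2 fold change of members was −0.11 (range −0.37 to 0.03) and 4 of 150 were above 0. With the covariate the median was 0.06 and 129 of 150 were above 0, an upward shift that the choice of members sets where the share is higher in MD than in LD bulls.

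**Figure D5:**
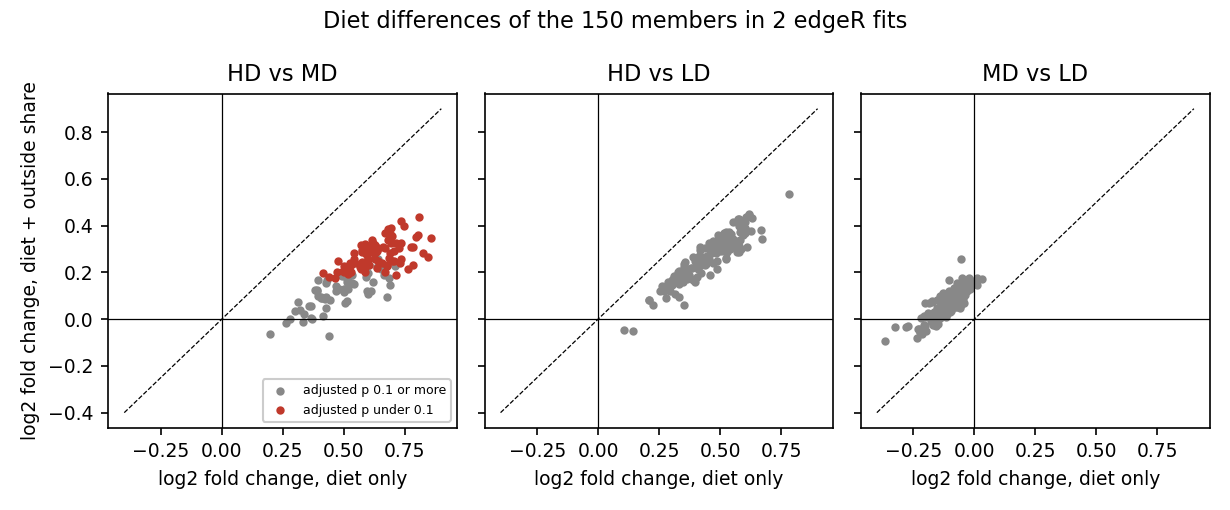
log2 fold change of each of the 150 members in the edgeR fit with diet only (x axis) and in the fit with diet and the share of reads outside exons (y axis), for 3 comparisons with 8 bulls per diet. Red points had an adjusted p under 0.1 in the fit with diet only; most points of HD vs MD and HD vs LD lie below the dashed line of equal values, with medians going from 0.59 to 0.22 and from 0.47 to 0.29, while those of MD vs LD lie above it.

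Use of exon bins. Whether bins within a member were used differently in HD and MD bulls does not depend on the total that the rule ranked. With limma's diffSplice and a Simes p per gene, 149 members could be tested, 0 had an adjusted p under 0.1 and 0 an unadjusted p under 0.05, and the smallest adjusted p was 0.999. Over all 10808 genes tested, 0.0463% were called and 1.51% had an unadjusted p under 0.05. No member was called when bins had a mean of at least 20 counts (5 of 9051 genes were), with that share in the fit (4 of 10808) or without HD bull 14 (3 of 10837). As so few genes were called, 0 members is near the background.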

How the data were processed

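Testis RNA of 24 bulls was sequenced as 1 library per bull. The authors deposited read counts per exon bin, not normalized, beside totals for unassigned reads (ambiguous, of low quality, or outside exons). The submitters' notes name TopHat2 2.0.10, Bowtie 1.1.2 and the UMD3.1 genome. The study's methods name a stranded mRNA kit, and featureCounts for counts on genes. The deposited counts are labelled dexseq, but the counting step and its strand setting are not described in the sources used here. Whether antisense reads were kept apart is therefore not known. Bin counts were added per gene, which counts a read once per bin it touches.

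Members and alternatives were chosen with earlier results of these data known. Diet differences were tested with edgeR 4.0.16 in R 4.3.3 (TMM, filterByExpr, glmQLFit and glmQLFTest, 24 libraries in one fit, Benjamini-Hochberg adjustment, adjusted p under 0.1). SEs were the log2 fold change over the square root of F. Bin use was tested with limma 3.58.1 (voom, diffSplice). DESeq2 1.42.0 was an alternative, as were library size alone, DESeq2's size factors, no filter, the most covered bin per gene, the covariate, and leaving out bulls. The ranking, the edgeR and DESeq2 gene fits and the diffSplice fit were run on simulated counts with planted changes. Counts were drawn independently there, without the variation that members share in these libraries. The covariate fit and the descriptive measures were not simulated. Correlations were computed in Python 3.11.15. Bulls are separate animals, so each was 1 replicate.

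The IDs named are the first 2 members in order of correlation, ties taken in order of ID, and the 2 called members with the smallest p. Planned gene lists, markers and promoter motifs were not analysed here, because IDs were not paired with symbols.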

Additional observations from a re-analysis of the deposited data

Results flagged for a closer look

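The total of LD bull 3 stood apart. It had 19470903 counts on features, the next LD bull had 15065648, and this gap was 0.674 of the range of the 8 LD bulls, above Dixon's 95% critical value. It was the only one of 30 groups of 8 bulls to stand out (6 library measures, members' measures included, and the levels of the 4 named members, in 3 diets each). Chance alone gives about 1.5 in 30. Levels in CPM are scaled to the total. Without this bull the list kept 123 of the 150 members.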

How the results depend on the processing

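Directions of the members' medians in HD vs MD and HD vs LD were kept under every alternative tried, and the counts of calls were not. Between HD and MD bulls, library size alone gave 36 called members and 3547 called features, the most covered bin per gene 52 and 1298, no filter on low counts 0 and 1, the covariate (share of reads outside exons) 0 and 1 (member median 0.22), and leaving out HD bull 14 and MD bull 6 together, chosen after seeing the data, 0 and 0. DESeq2's size factors gave 95 and 2170, and DESeq2 119 and 2934. DESeq2 and the fit with no filter took in every feature with any count, more than the 15005 of the main fit. Without any filter 132 members, and without both bulls 137, were higher in HD at an unadjusted p under 0.05, against 11.2% and 13.8% of all features. The cause was not tested. Between HD and LD bulls DESeq2 gave 13 members and 524 features, and it brought ENSBTAG00000022009 past the threshold (adjusted p = 0.0951), as did edgeR without HD bull 12 (adjusted p = 0.0987). With each bull left out in turn, called members ranged from 0 to 137 (HD vs MD) and 0 to 12 (HD vs LD), called features from 1 to 4019 and 0 to 716, and member medians from 0.45 to 0.67, 0.33 to 0.54 and −0.20 to −0.03 (MD vs LD). In MD vs LD, ENSBTAG00000018074, at −0.02, went to 0.01 (0.00679) with the most covered bin, 0.128 with the covariate and 0.0797 without both bulls, with a range of −0.121 to 0.0851 over single bulls left out, and ENSBTAG00000022009 went to 0.0407 with the covariate. Of the 150 members, 90 were taken with TMM-scaled levels, 90 with deviations in place of ranks, 80 with the most covered bin, 115 with the share over counts on features and outside reads only, and 73, 91 and 104 without the HD, LD and MD bulls, which was chosen after seeing the data. Leaving out single bulls kept 88 (without HD bull 14) to 141. No paired analysis was possible because the groups compared share no replicate numbers. Depth limits members of few counts most; the lowest count of a member in a bull was 31.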
